A study of Mus musculus with 8 samples.

Results

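The Toll-like receptor group comprised 7 receptors (Tlr1, Tlr2, Tlr3, Tlr4, Tlr6, Tlr7 and Tlr13), the co-receptor Cd14, the adaptor Myd88 and the inhibitory IRAK family member Irak3. These were 10 genes of the 15152 genes with a retained probe. Members were taken from a list of gene names, and the rule used no difference between the groups. That list was chosen with earlier results of these data known, so that its shares are a description. Each gene was read from its brightest probe among those that the array names by a RefSeq transcript of the gene and that were well above background on 4 or more of the 8 arrays. The group held 11 of the 34038 retained probes, since only Tlr7 had a further probe. All 10 members were well above background on all 8 arrays.

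Cardiac RNA came from the ventricles of male C57BL\6 mice, taken 24 hours after surgery, with 1 array (mouse SurePrint G3, 1 colour) per mouse. The MI group (n = 4) had a permanent ligation of the anterior interventricular artery. The sham-operated group (n = 4) had the same surgery with no ligation, so that both groups carried the injury of the operation itself. Whole ventricles were extracted, and in such tissue more cells of a type and more RNA per cell cannot be told apart. The share of spots well above background lay between 58.6% and 66.4% per array, and correlations between arrays of the same group lay between 0.990 and 0.995, to 3 decimals. All 8 cardiomyocyte markers were retained and none passed the test (median log2 fold change -0.06). Pln was the lowest of them at -0.56 (limma, adjusted p = 0.140). With each array scaled to its 75th percentile Pln gave -0.68 and passed as lower (limma, adjusted p = 0.00643).

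Toll-like receptors are sensors of the innate immune system that bind molecules of microbes and molecules released by injured tissue. TLR2 works as a pair with TLR1 or with TLR6 at the cell surface, where the pairs recognise lipopeptides; TLR4 at the surface responds to lipopolysaccharide, with CD14 handing over the ligand. TLR3, TLR7 and TLR13 sit in endosomes and sense double-stranded RNA, single-stranded RNA and a stretch of bacterial ribosomal RNA. All of these receptors except TLR3 signal through the adaptor MYD88, and the pathway ends in NF-kB and in the transcription of cytokines. In the injured heart these receptors are known for linking cell death to inflammation.

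The receptors fell into those that were higher after MI and those for which no difference was found, and the promoters of examples of each are shown so that the letters at the start of these genes can be read beside the values. Windows were taken from RefSeq (GRCm38.p6) and run from 250 bases before to 50 bases after a transcription start, 5′ to 3′ on the strand of the gene. A window was held for 7 of the 10 members, with 10 windows in all; Tlr4, Tlr7 and Cd14 are named only. Capitals mark matches on either strand to the NF-kB consensus (by its name, the decameric kB motif), to GAGGAA (the core bound by PU.1, a factor of myeloid cells), to TGANTCA (AP-1) or to the interferon response motif (GAAA repeated after any 2 bases). Tlr2 holds the NF-kB motif, Tlr6 (the first of its windows) the interferon motif, Tlr13 the PU.1 core and Tlr3 the NF-kB motif.
Tlr2, chr3:83841559-83841858, minus strand: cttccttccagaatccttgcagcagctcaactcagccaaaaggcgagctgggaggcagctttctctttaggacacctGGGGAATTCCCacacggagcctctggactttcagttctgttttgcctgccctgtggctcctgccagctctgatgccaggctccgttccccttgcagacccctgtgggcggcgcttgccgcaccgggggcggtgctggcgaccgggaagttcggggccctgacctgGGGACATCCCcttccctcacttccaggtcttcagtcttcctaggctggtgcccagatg
Tlr6, chr5:64959117-64959416, minus strand: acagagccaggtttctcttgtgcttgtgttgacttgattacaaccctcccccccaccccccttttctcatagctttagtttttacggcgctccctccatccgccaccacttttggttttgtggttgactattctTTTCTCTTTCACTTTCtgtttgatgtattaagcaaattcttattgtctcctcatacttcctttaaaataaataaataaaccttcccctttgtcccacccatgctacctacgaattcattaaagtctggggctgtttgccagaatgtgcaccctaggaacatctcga
Tlr13, chrX:106143025-106143324, plus strand: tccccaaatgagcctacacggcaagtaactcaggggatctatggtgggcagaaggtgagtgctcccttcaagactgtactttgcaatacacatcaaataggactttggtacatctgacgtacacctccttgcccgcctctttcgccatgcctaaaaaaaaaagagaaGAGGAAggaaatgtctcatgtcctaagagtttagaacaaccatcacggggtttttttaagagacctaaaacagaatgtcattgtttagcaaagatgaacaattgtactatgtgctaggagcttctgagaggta
Tlr3, chr8:45410331-45410630, minus strand: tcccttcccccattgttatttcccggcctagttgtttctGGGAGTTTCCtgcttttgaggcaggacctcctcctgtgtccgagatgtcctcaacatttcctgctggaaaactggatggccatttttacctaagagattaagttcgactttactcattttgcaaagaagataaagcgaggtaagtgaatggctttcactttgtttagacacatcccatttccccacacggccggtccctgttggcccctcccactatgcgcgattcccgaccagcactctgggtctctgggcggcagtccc
In Tlr2 the NF-kB matches near the 5′ end share letters and 1 of them reads on both strands, and in Tlr6 the interferon matches overlap; no match of different motifs overlapped in the 4 windows shown. The NF-kB consensus occurred in 2 of the 10 windows, those of Tlr2 and Tlr3, against 4.51% of all 32851 windows. The PU.1 core occurred in 3 of the 10 (Tlr1, Tlr13 and Irak3, 1 window each) against 28.3% of all windows, the interferon motif in 2 (Tlr6 and Myd88) against 3.44%, and AP-1 in 0 against 7.81%. A match is a description of these letters. The kB motif stood in a gene that rose, Tlr2, and in a gene for which no change was found, Tlr3.

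Surface receptors of the TLR2 group, Tlr1, Tlr2 and Tlr6, were all higher in MI mice than in sham-operated mice, and so was Tlr13. Values are log2 normalized signals, given in order of replicate number, and levels are compared between mice for a probe and not between probes. Calling a gene required a fold over 2 together with an adjusted p below 0.05, from limma with Benjamini-Hochberg adjustment across the 34038 probes. On this rule 5 of the 10 members were called higher (Tlr1, Tlr2, Tlr6, Tlr13 and Cd14) and 0 were called lower. Of all 15152 genes, each read by its brightest probe, 4.06% were called higher and 0.541% lower. With adjusted p under 0.05 at any fold, 7 of the 10 members were higher and 0 lower, against 7.74% and 1.78% of all genes, the additional members being Myd88 and Irak3. Every MI mouse was above every sham-operated mouse in 7 of the 10 members, these same 7, and in 9.45% of all genes. The adjusted p comes from the same values and largely fixes this arrangement in the 7 genes. The median log2 fold change of the 10 members was 1.09, beside 0.07 over all genes.

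Tlr2 encodes the shared partner of the lipopeptide-sensing pairs. Its signal was 9.34, 9.73, 9.86 and 9.51 in MI mice and 8.15, 8.08, 8.55 and 8.02 in sham-operated mice. The lowest MI mouse was above the highest sham-operated mouse, so that the groups were separate. The mean was 9.61 ± 0.23 against 8.20 ± 0.24 (SD, n = 4), a log2 fold change of 1.41 (SE 0.21), or 2.65-fold with a 95% confidence interval from 1.97 to 3.58 (limma, adjusted p = 3.96e-05).

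Tlr6 encodes a partner of TLR2 and, with the authors' normalization, had the largest change among the 7 receptors; with a normalization fitted here to the spike-in probes it came after Tlr13 and Tlr2. Its signal was 7.89, 8.08, 8.43 and 7.90 in MI mice and 6.61, 6.07, 6.02 and 5.96 in sham-operated mice. The sham-operated mouse with replicate number 1 was well above the other three of its group and still below all MI mice. The mean was 8.08 ± 0.25 against 6.17 ± 0.30 (SD, n = 4), a log2 fold change of 1.91 (SE 0.22), or 3.76-fold with an interval from 2.76 to 5.11 (limma, adjusted p = 5.98e-07).

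Tlr1, the other partner of TLR2 and the neighbour of Tlr6 in the genome, was dim in sham-operated mice. Its signal was 7.00, 6.78, 6.96 and 7.09 in MI mice and 6.14, 5.75, 5.55 and 5.52 in sham-operated mice. The 4 MI mice lay close together and above all sham-operated mice. The mean was 6.96 ± 0.13 against 5.74 ± 0.29 (SD, n = 4), a log2 fold change of 1.22 (SE 0.21), or 2.33-fold with an interval from 1.73 to 3.14 (limma, adjusted p = 0.000235). Tlr6 rose by 0.69 more than Tlr1 on the log2 scale. Its difference from Tlr1 within a mouse separated the groups (exact permutation p = 0.0286, the smallest that 4 mice against 4 mice allow; 0.0584 after adjustment over all 45 pairs of members).

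Tlr13, the endosomal sensor of bacterial ribosomal RNA in mice, had a signal of 10.63, 10.63, 10.85 and 11.01 in MI mice and of 9.78, 9.29, 9.89 and 9.14 in sham-operated mice. All MI mice were above all sham-operated mice, and the spread was wider in the sham-operated group. The mean was 10.78 ± 0.18 against 9.53 ± 0.37 (SD, n = 4), a log2 fold change of 1.25 (SE 0.22), or 2.38-fold with an interval from 1.74 to 3.25 (limma, adjusted p = 0.000306).

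**Figure D1:**
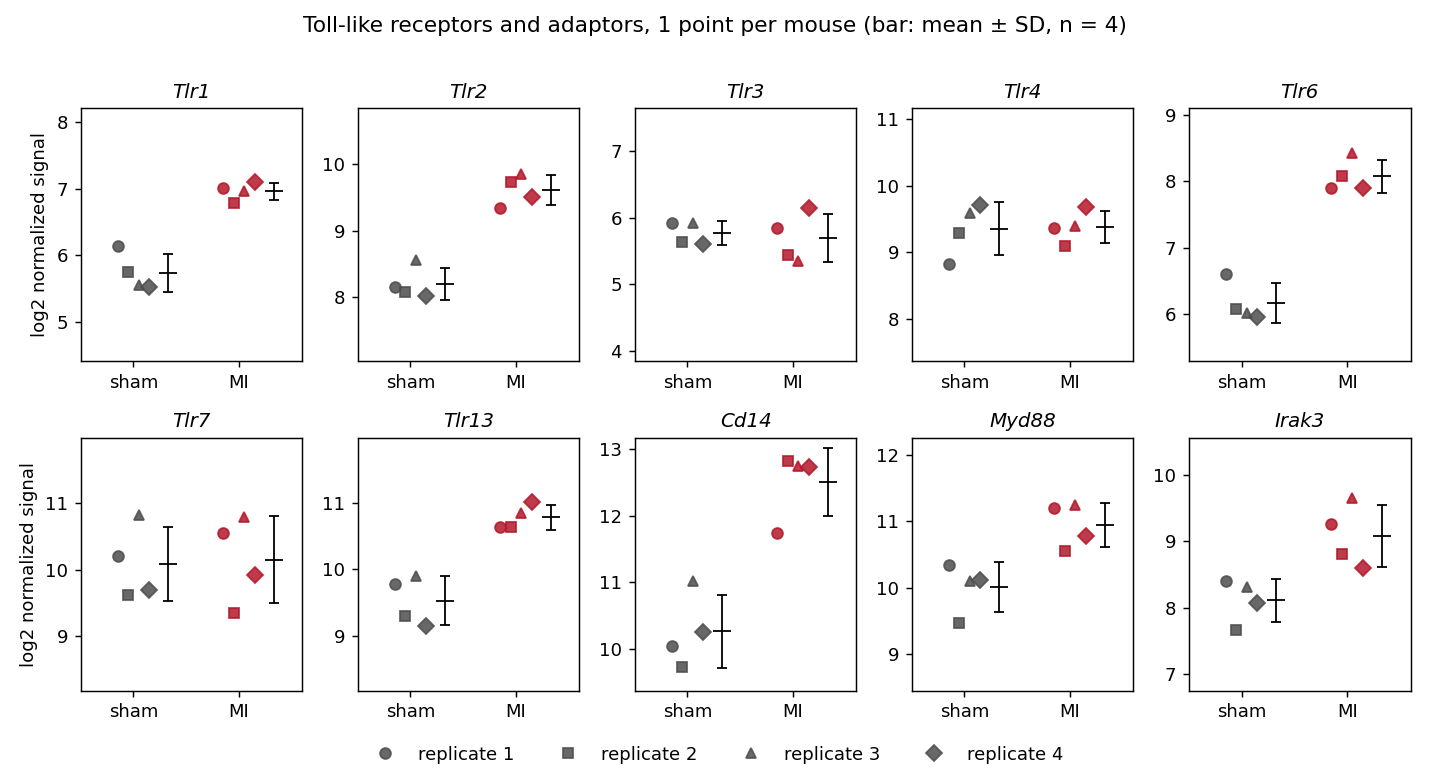
Log2 normalized signal (y axis, with the same span of 3.8 in each panel) of the 10 members in sham-operated mice (grey) and MI mice (red), with 1 point per mouse, the shape of the point giving the replicate number, and the mean ± SD of n = 4 beside the points. In 7 panels all MI mice lie above all sham-operated mice, and in the panels of Tlr3, Tlr4 and Tlr7 the groups overlap.

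The remaining receptors, Tlr3, Tlr4 and Tlr7, did not pass the test in either direction. Tlr4, the receptor for lipopolysaccharide, had a signal of 9.37, 9.09, 9.39 and 9.69 in MI mice and of 8.82, 9.29, 9.60 and 9.70 in sham-operated mice. The 2 groups overlapped over most of their range, and the highest and the lowest mouse were both sham-operated. The log2 fold change was 0.03 (SE 0.22; limma, adjusted p = 0.962), with a 95% confidence interval from -0.43 to 0.49, which corresponds to folds from 0.741 to 1.41 and leaves out the 2-fold threshold.

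Tlr7, the endosomal sensor of single-stranded RNA, varied by its brightest probe more between mice of the same group than any other member. Its signal was 10.56, 9.34, 10.80 and 9.92 in MI mice and 10.21, 9.62, 10.82 and 9.69 in sham-operated mice. The mouse with replicate number 3 was the highest and the mouse with number 2 the lowest in both groups. The log2 fold change was 0.07 (SE 0.28; limma, adjusted p = 0.929), with an interval from -0.52 to 0.65. The dimmer probe of Tlr7 gave -0.05 (SE 0.22, limma, adjusted p = 0.924), so that neither probe showed a difference. This dimmer probe had 7.19, 7.20, 7.41 and 7.92 in MI mice and 7.69, 7.28, 7.66 and 7.32 in sham-operated mice. By it the range was narrower in both groups, and the mouse with replicate number 3 was the highest in neither.

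Tlr3, the sensor of double-stranded RNA that does not use MYD88, was dim in both groups. Its signal was 5.85, 5.44, 5.35 and 6.14 in MI mice and 5.92, 5.64, 5.93 and 5.61 in sham-operated mice. The sham-operated mice lay within the range of the MI mice. The log2 fold change was -0.08 (SE 0.22; limma, adjusted p = 0.891), with an interval from -0.53 to 0.37. The processed signal of the probe before normalization was between 31.6 and 65.5 on the 8 arrays, beside a median of 206 for the retained probes.

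The small differences of Tlr3, Tlr4 and Tlr7 carry no direction. That of Tlr3 was below 0 under every normalization and ranged from -0.23 to 0.04 when 1 mouse was left out. The sign turned negative for Tlr4 and Tlr7 when each array was scaled to its 75th percentile, which lowered the median log2 fold change of all retained probes from 0.12 to -0.02.

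Cd14, which encodes the co-receptor that passes lipopolysaccharide and lipopeptides to TLR4 and TLR2, had the largest change of the 10 members. Its signal was 11.74, 12.82, 12.74 and 12.73 in MI mice and 10.04, 9.72, 11.02 and 10.26 in sham-operated mice. The MI mouse with replicate number 1 was about 1 log2 unit below the other three and still above all sham-operated mice. The mean was 12.51 ± 0.51 against 10.26 ± 0.55 (SD, n = 4), a log2 fold change of 2.25 (SE 0.27), or 4.75-fold with an interval from 3.24 to 6.95 (limma, adjusted p = 1.34e-06). CD14 hands lipopolysaccharide to the receptor TLR4, and for Tlr4 no difference was found. The log2 fold change of Cd14 was 2.22 above that of Tlr4. The difference of both signals within a mouse was 3.13 ± 0.58 after MI and 0.91 ± 0.49 after sham operation (SD, n = 4). The groups did not overlap in it (exact permutation p = 0.0286, and 0.0584 after adjustment over the 45 pairs). The change of Cd14 in these same values largely fixes this outcome, which is given as a description.

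Myd88 and Irak3, the adaptor of the pathway and its brake, rose by just under 2-fold and were therefore not called. Myd88, the adaptor shared by the receptors other than TLR3, had a signal of 11.20, 10.56, 11.24 and 10.79 in MI mice and of 10.34, 9.47, 10.11 and 10.12 in sham-operated mice. The mean was 10.95 ± 0.33 against 10.01 ± 0.37 (SD, n = 4), a log2 fold change of 0.94 (SE 0.23), or 1.92-fold with an interval from 1.38 to 2.65 (limma, adjusted p = 0.00904).

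Irak3, which encodes an IRAK family protein that restrains signalling downstream of MYD88, had a signal of 9.26, 8.81, 9.64 and 8.59 in MI mice and of 8.40, 7.66, 8.31 and 8.06 in sham-operated mice. The groups were separate by a small margin, between the lowest MI mouse and the highest sham-operated mouse. The mean was 9.08 ± 0.47 against 8.11 ± 0.33 (SD, n = 4), a log2 fold change of 0.97 (SE 0.24), or 1.96-fold with an interval from 1.39 to 2.75 (limma, adjusted p = 0.00989). Without the MI mouse of replicate number 3 the log2 fold change was 0.78 and the adjusted p of limma 0.0505. It was 0.0979 with the normalization fitted here to the spike-in probes, and with no filter on detection 0.123 for Irak3 and 0.106 for Myd88. The changes of Irak3 and Myd88 differed by 0.03 on the log2 scale.

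**Figure D2:**
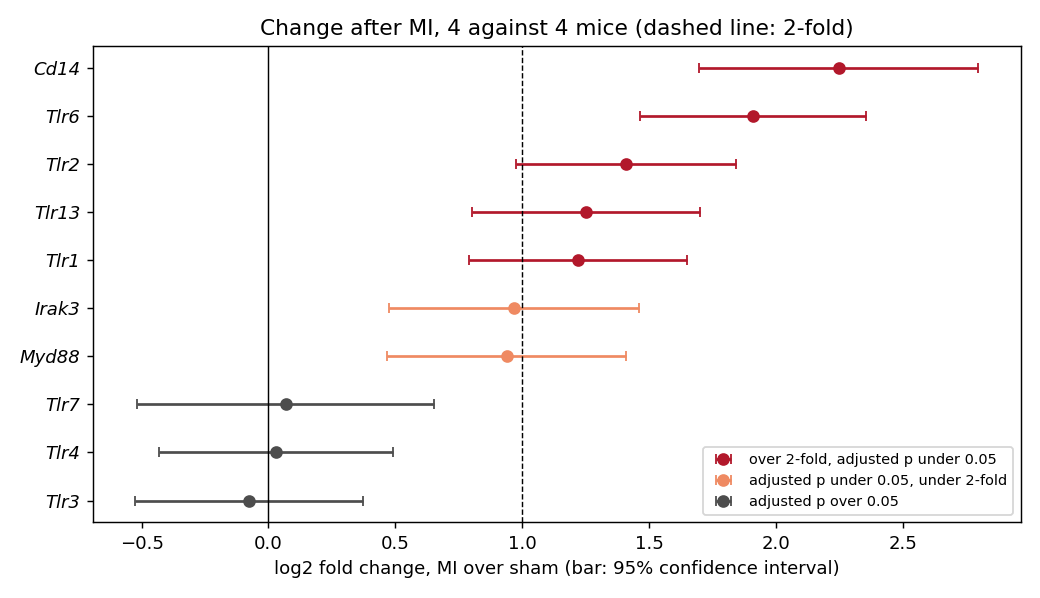
Log2 fold change of MI over sham-operated mice (x axis) for the 10 members in order of their change, from limma on 4 against 4 mice, with bars for the 95% confidence interval; the solid line marks no change and the dashed line 2-fold. Cd14 (2.25) and Tlr6 (1.91) lie farthest to the right with intervals wholly above the dashed line, Irak3 and Myd88 lie just below it, and the intervals of Tlr7, Tlr4 and Tlr3 hold 0.

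With the authors' normalization the order of the changes was Cd14, Tlr6, Tlr2, Tlr13, Tlr1, Irak3, Myd88, Tlr7, Tlr4 and Tlr3. The difference between the changes of members was tested within mice for all 45 pairs. In 22 of the 45 pairs the groups did not overlap. Of these, 18 set a member with adjusted p under 0.05 against a member without it, a division that the same comparison of MI with sham had made and that largely fixes this count; it is given as a description. Tlr1, Tlr2, Tlr6, Tlr13 and Cd14 were each separate against Tlr3, Tlr4 and Tlr7. The exceptions were Myd88 against Tlr4, and Irak3 against Tlr3 and Tlr4. Among the pairs within the members with adjusted p under 0.05, 4 did not overlap, with Tlr6 changing more than Tlr1, Tlr13, Myd88 and Irak3. With the normalization fitted here to the spike-in probes, the change of Tlr6 (0.80) was under those of Tlr13 (1.07) and Myd88 (0.83), so that this order depends on the additive constant. Among these members, neighbours in the order did not differ beyond their spread. The 22 separate pairs had an exact permutation p of 0.0286, the smallest possible, and an adjusted p of 0.0584. After adjustment 0 of the 45 pairs passed, and a pair could pass only if most pairs reached the smallest p.

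Each of the 2 rows of the single slide carried 2 arrays per group, and the changes were also taken within each row. In the first row and the second row the log2 fold change was 2.40 and 2.09 for Cd14, 1.64 and 2.17 for Tlr6, 1.42 and 1.40 for Tlr2, 1.09 and 1.41 for Tlr13, and 0.95 and 1.49 for Tlr1. It was 1.00 and 0.93 for Irak3 and 0.98 and 0.90 for Myd88. These 7 members were higher in MI mice in both rows. Tlr4 gave 0.17 and -0.11, Tlr7 0.04 and 0.10, and Tlr3 -0.14 and -0.02.

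How far the changes reached 2-fold depended on how the arrays were normalized, most of all for the dim receptors. The authors' normalization adds a constant of 3.16 to 19.6 to the signal of an array before the log2 is taken, and the values above use it. The normalization fitted here to the spike-in probes used constants of 166 to 257, which hold back the fold changes of dim probes. With it the log2 fold change was 0.36 for Tlr1, 0.80 for Tlr6 and 1.00 for Tlr2 (just under 2-fold), and 2 members were called, Tlr13 (1.07) and Cd14 (2.08). The order was then Cd14, Tlr13, Tlr2, Myd88 (0.83), Tlr6, Irak3 (0.65) and Tlr1 for the members other than Tlr3, Tlr4 and Tlr7. The adjusted p of limma stayed under 0.05 for Tlr1, Tlr2 and Tlr6 (0.0228, 0.00206 and 0.00252) and was 0.0979 for Irak3. With normexp background correction and quantile normalization, 4 members were called, and Tlr1 had 0.63.

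**Figure D3:**
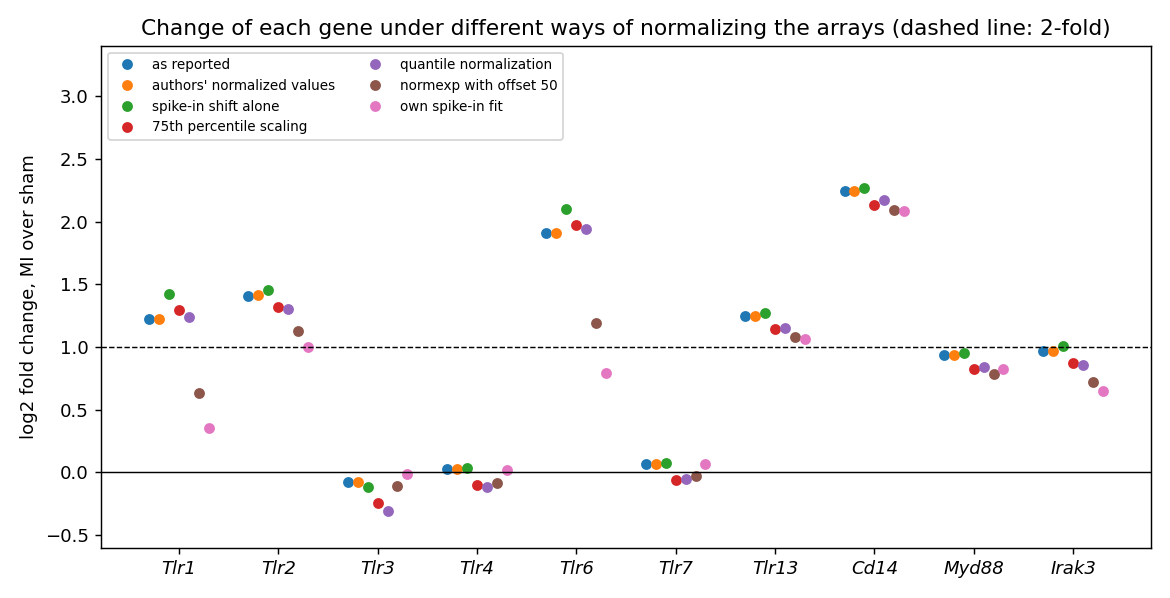
Log2 fold change of MI over sham-operated mice (y axis) of each of the 10 members under 7 ways of normalizing the arrays, with 1 coloured point per way; the solid line marks no change and the dashed line 2-fold. The points of Cd14 and Tlr13 all lie above the dashed line, those of Tlr1 spread from 0.36 to 1.43 and those of Tlr6 from 0.80 to 2.10, and those of Tlr3, Tlr4 and Tlr7 lie between -0.31 and 0.07.

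The pathway around the members was read from 7 lists with 80 genes in all, of which 71 had a retained probe. Of these 24 were called higher and 0 lower, and 30 were higher and 0 lower with adjusted p under 0.05 at any fold. Over all genes 4.06% were called higher and 0.541% lower. The lists were chosen with earlier results of these data known. They are described by their counts, and differences between lists were not tested.

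Of the remaining Toll-like receptors, 0 of 2 with a retained probe passed the test. The log2 fold change was 0.20 for Tlr5, the receptor for flagellin, and 0.10 for Tlr9, the endosomal receptor for unmethylated CpG DNA (limma, adjusted p = 0.651 and 0.862). Tlr8, Tlr11 and Tlr12 had no retained probe. Of the accessory and trafficking proteins 0 of 7 passed, with a median of -0.01. Ly96, which encodes MD-2, the partner of TLR4, gave 0.02, and Unc93b1, which carries the endosomal receptors out of the endoplasmic reticulum, also gave 0.02.

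Of the adaptors and proximal kinases 2 of 15 were called. They were Tirap, the adaptor that bridges TLR2 and TLR4 to MYD88 (log2 fold change 1.22, SE 0.24; limma, adjusted p = 0.00119), and Ikbke, a kinase of the interferon branch (1.00, SE 0.23; limma, adjusted p = 0.00444), whose probe was well above background in 1 of the 4 sham-operated mice. The kinases next to MYD88 did not pass: Irak4 gave 0.37, and Irak1 0.01 by its brightest probe and up to 0.51 by another. Traf6, the ubiquitin ligase that follows them, gave 0.49 and did not pass. Ticam1, the adaptor of TLR3, gave 0.41 (limma, adjusted p = 0.313).

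Of the NF-kB and IRF factors 3 of 11 were called, Irf5 (log2 fold change 1.33), Irf7 (1.33) and Relb (1.16), and 5 had an adjusted p under 0.05, with Nfkb2 (0.90) and Rel (0.79) in addition. IRF5 and IRF7 are transcription factors that act below MYD88, and RELB and NFKB2 form the complex of the non-canonical branch of NF-kB. The probe of Rel was well above background in 1 of the 4 sham-operated mice. Rela, a subunit of canonical NF-kB, gave 0.36 and Irf3, the factor of the TLR3 branch, 0.13, and neither passed. Nfkb1 gave 0.78 by its brightest probe and 0.23 by another, and did not pass (limma, adjusted p = 0.0579). With 75th percentile scaling the adjusted p of limma was 0.0365 for Nfkb1.

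Of the genes listed as brakes, of the pathway or of cytokine signalling, 5 of 14 were called and 7 had an adjusted p under 0.05, all higher. Il1rn, which encodes the antagonist of the interleukin-1 receptor, had a log2 fold change of 2.29, with a probe well above background in 1 of the 4 sham-operated mice. Socs3 and Socs1, which encode suppressors of cytokine signalling, had 2.15 and 1.49, and Nfkbie, an inhibitor of NF-kB, had 1.34. Tnfaip3, which encodes the ubiquitin-editing enzyme A20, had 1.26. Nfkbiz (0.81) and Zc3h12a (0.90) passed the adjusted p and stayed under 2-fold. With 75th percentile scaling the adjusted p of limma was 0.102 for Nfkbiz. Nfkbib gave 0.63 by its brightest probe, which did not pass (limma, adjusted p = 0.109), and up to 1.03 by another. With 75th percentile scaling the adjusted p of limma was 0.0460 for the brightest probe of Nfkbib. Tnip3 gave -0.51, with every MI mouse below every sham-operated mouse, and did not pass (limma, adjusted p = 0.160). With 75th percentile scaling Tnip3 gave -0.77 and passed as lower (limma, adjusted p = 0.00942).

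Of the cytokines and enzymes that the pathway induces 10 of 13 were called higher, with a median of 2.70. The 4 largest changes were those of Cxcl10 (log2 fold change 4.09, SE 0.28), Ccl4 (3.78, SE 0.33), Cxcl2 (3.68, SE 0.28) and Il6 (3.35, SE 0.36), a chemokine of T cells, a chemokine of monocytes, a chemokine of neutrophils and a cytokine of the acute phase. The probe of Cxcl10 was well above background in 3 of the 4 sham-operated mice. Ccl5 (0.94) passed the adjusted p alone. Nos2, the inducible nitric oxide synthase (0.38; limma, adjusted p = 0.331), and Il10, an anti-inflammatory cytokine (0.45; limma, adjusted p = 0.319), did not pass. Il12b and Ifnb1 had no retained probe. These genes also respond to other receptors, and the part of the Toll-like receptors in their change was not tested.

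Of the endogenous ligands released in injury 4 of 9 were called higher. Hspa1a, which encodes a heat shock protein of the HSP70 family, had a log2 fold change of 5.07 (SE 0.30). S100a8 and S100a9, which form calprotectin and are named as ligands of TLR4, had 3.02 and 2.79, and Saa3, an acute-phase apolipoprotein, had 1.12, a call that was lost with 75th percentile scaling (limma, adjusted p = 0.100). Vcan (0.81 by its brightest probe and 0.48 by another) passed the adjusted p alone. Hmgb1, a nuclear protein that acts as a ligand when released, gave -0.06 (limma, adjusted p = 0.910), which concerns its RNA and not its release.

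**Figure D4:**
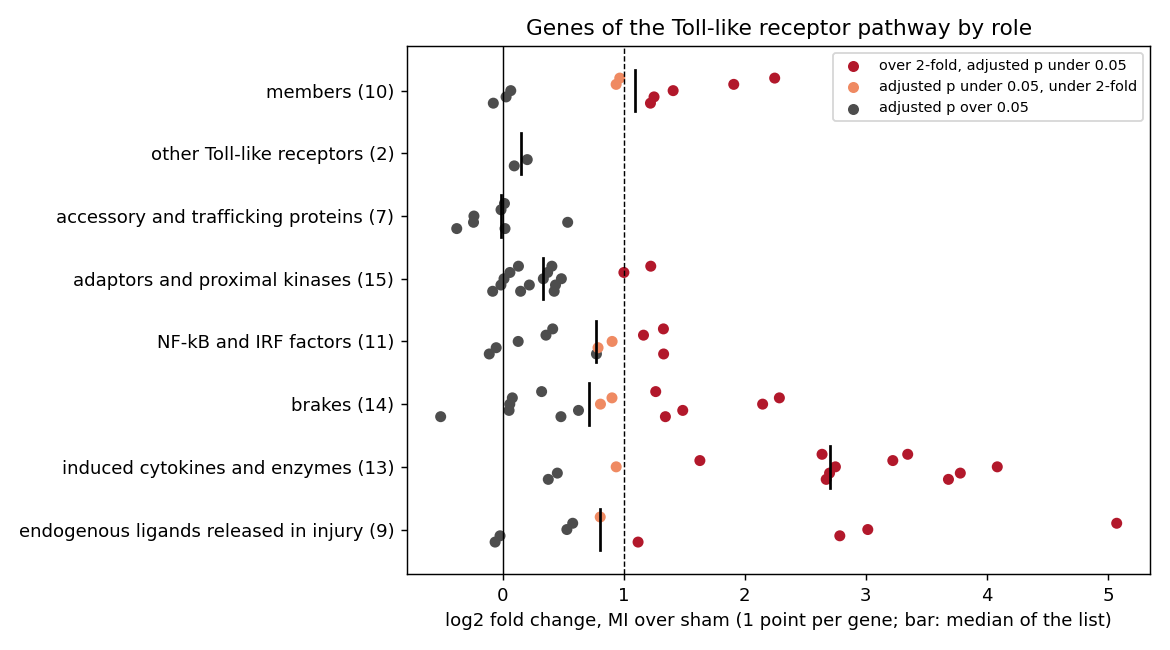
Log2 fold change of MI over sham-operated mice (x axis) for the 10 members and the 71 genes of the 7 pathway lists, 1 point per gene and 1 row per list, with the number of genes in brackets and a bar at the median; red points were called, orange points had an adjusted p under 0.05 at less than 2-fold, and grey points did not pass. The points of the accessory proteins lie around 0, and those of the induced cytokines reach from 0.38 to 4.09.

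Among the markers of leukocytes, Ptprc and most neutrophil markers were higher after MI. Most markers of monocytes, macrophages, T cells and B cells did not pass. Ptprc, the gene of the pan-leukocyte protein CD45, had a log2 fold change of 1.10 (SE 0.21; limma, adjusted p = 0.000906). Its signal was 8.14 ± 0.26 after MI and 7.05 ± 0.20 after sham operation (SD, n = 4), with no overlap. Of the neutrophil markers 6 of 9 were called higher, with a median of 2.79 and a summed normalized signal of 203881 to 315990 in MI mice against 61526 to 80352 in sham-operated mice. S100a9 and S100a8 made up most of the sum in MI mice, and Csf3r, which did not pass (0.08), most of it in sham-operated mice. Ngp was not well above background in any sham-operated mouse, and Ly6g had no retained probe. S100a8 and S100a9 stand both in this list and among the ligands.

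Of the markers of monocytes and macrophages 1 of 7 was called, Ccr2, the chemokine receptor of recruited monocytes (log2 fold change 1.15), and the summed normalized signal was 11259 to 20794 in MI mice against 13958 to 20516 in sham-operated mice. Csf1r, the receptor of macrophage colony-stimulating factor, gave -0.16 by its brightest probe and up to 0.46 by another, and Lyz2, the lysozyme of myeloid cells, gave 0.15. Cd68 and Ly6c2 had no retained probe named by a RefSeq transcript, and probes under other names were not read, so that their change is not given here. For T cells 0 of 4 and for B cells 0 of 4 were called, with 1 gene of each at an adjusted p under 0.05 (Cd3d and Cd79b, the latter at 0.0863 in limma with 75th percentile scaling). None of the 7 fibroblast and 6 endothelial markers passed, and of smooth muscle 1 of 5 was called, Acta2 (1.46). The endothelial marker Pecam1 gave 0.65 (limma, adjusted p = 0.109). With 75th percentile scaling Pecam1 gave 0.53 and passed as higher (limma, adjusted p = 0.0389). The part of these cells in the changes of the receptors was not tested.

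Against Ptprc in the same mouse the members fell on both sides. Cd14 rose by 1.15 and Tlr6 by 0.81 more than Ptprc on the log2 scale, with no overlap between the groups. Tlr3 was lower against Ptprc by 1.17 and Tlr4 by 1.07 after MI, also with no overlap. The exact permutation p was 0.0286 for each of these 4 genes, and 0.0714 after adjustment over the 10 members. Ptprc itself rose by 1.10 with no overlap, and no change was found for Tlr3 and Tlr4. The differences of Tlr3 and Tlr4 are therefore largely the rise of Ptprc with its sign reversed, and are given as a description. The differences of Tlr1 (0.12), Tlr13 (0.15), Tlr2 (0.31), Irak3 (-0.13), Myd88 (-0.16) and Tlr7 (-1.03) overlapped between the groups. After adjustment 0 of the 10 members passed. The smallest possible exact p is 0.0286, so that a member could pass only if most members reached it. The adjusted test therefore cannot tell whether single members differed from Ptprc in their change.

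The genes closest in pattern to each called member were found among 15082 genes by the root mean square difference of log2 values centred over the 8 mice. For Tlr2 they were Socs1 (0.12), Trem1 (0.15) and Procr (0.15). For Tlr6 they were Tnfrsf26 (0.12), Fgr (0.13) and Clcf1 (0.13), and for Tlr1 they were Kcne3 (0.14), Rgs14 (0.14) and Pik3r5 (0.14). For Tlr13, which had the closest neighbours of all, they were Slfn8 (0.08), Irf5 (0.10) and Lcp1 (0.10). For Cd14 they were Plaur (0.15), Slfn3 (0.23) and Fhl1 (0.25). Among the other members Tlr13 was the closest to Tlr2 (0.23) and to Tlr1 (0.24), and Tlr2 was the closest to Tlr6 (0.36).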

How the data were processed

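RNA of the ventricles of 4 MI mice and 4 sham-operated mice was measured on 1-colour arrays, 1 per mouse. Groups were taken from the sample labels, which describe no pooling of mice. The intensities deposited are, per the file headers, signals that Feature Extraction 11.0.1.1 had processed, with the local background subtracted and spatial trends removed within each array. The log2 values of the authors were normalized between arrays with spike-in probes by limma and vsn, with spots not well above background left out; per the labels, 200 ng of RNA was labeled. Set against the scanner signals, these values gave back the scale and additive constant of every array exactly to rounding. The same constants were applied here to all spots, so that dim spots kept a value. Probes had to be well above background on 4 or more arrays, outlier-flagged spots and control probes were left out, and spots of a probe were averaged.

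The groups were compared on 34038 probes with limma 3.58.1 under R 4.3.3, with no covariate and Benjamini-Hochberg adjustment. Other computations used Python 3.11.15, numpy 2.4.6, scipy 1.17.1 and pandas 2.3.3, with figures from matplotlib 3.10.9. Exact permutation tests are two-sided and use all 70 relabellings. Probes were named through RefSeq accessions, and 19698 of the retained probes had a gene symbol. A gene was read from its brightest retained probe. Genes given as having no retained probe had none named in this way, and probes under other names were not read for them. Precision is limited by the 8 arrays, and the p-values cover the spread between these mice on 1 slide.

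The members and gene lists were chosen with earlier results of these data known. Named are the 10 members, in each pathway list up to 4 called genes by size of change, up to 2 markers per list by signal, and the 3 genes closest in pattern to each called member; any other gene, and the Tlr3 promoter, was named after its values were seen. Alternatives were an own spike-in fit, 75th percentile scaling, a spike-in shift alone, quantile normalization, the authors' values, normexp with an offset of 50 on median intensities, other detection filters, the mean of the probes of a gene, significance analysis of microarrays as the methods name it, an unmoderated test, blocks for replicate number and slide row, and each mouse left out.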

Additional observations from a re-analysis of the deposited data

Results flagged for a closer look

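In 2 of the 20 groups of 4 mice (10 members in MI and in sham-operated mice) 1 mouse lay far from the other three, with a gap to the nearest above Dixon's limit for 4 values as a share of the group's range. Chance gives this in about 5% of such groups. For Cd14 the MI mouse with replicate number 1 had a log2 signal of 11.74, against 12.73 to 12.82 in the other MI mice (ratio of gap to range 0.916). For Tlr6 the sham-operated mouse with replicate number 1 had 6.61, against 5.96 to 6.07 in the others (ratio of gap to range 0.830). Both mice lay on the side of the opposite group. Their part in these changes was bounded by leaving out each mouse in turn, which gave log2 fold changes from 2.07 to 2.50 for Cd14 and from 1.79 to 2.06 for Tlr6.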

How the results depend on the processing

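The direction of Tlr1, Tlr2, Tlr6, Tlr13, Cd14, Myd88 and Irak3 was the same under all 24 alternatives, and the adjusted p was under 0.05 under 24 of them for Tlr2, Tlr6 and Cd14, 23 for Tlr1 and Tlr13, 20 for Myd88 and 18 for Irak3. Called members numbered 5, and 2 with the own spike-in fit, 3 within slide row 1 and 5 to 7 without 1 mouse. Members with adjusted p under 0.05 numbered 7, and 3 within slide row 1 and 6 to 7 without 1 mouse. Myd88 and Irak3 lost this threshold with no detection filter, in the unmoderated test and within each slide row, and Irak3 also with the own spike-in fit (0.0979) and without MI replicate 3 (0.0505). Adjusted over the 21 pairs between members that passed and members that did not, a family that the results themselves chose and that was tried after seeing the data, 18 pairs of members had an adjusted p under 0.05, against 0 of 45 over all pairs. Called pathway genes numbered 24, and 13 with the own spike-in fit, 15 with normexp, 15 in the unmoderated test and 22 to 25 without 1 mouse. Called probes numbered 1184, and 333 with the own spike-in fit, 533 with normexp, 576 in the unmoderated test, 523 within slide row 1 and 1046 to 1461 without 1 mouse. Probes called higher numbered 1046, and in the same order 320, 438, 569, 456 and 925 to 1321. Probes called lower numbered 138, and 13 with the own spike-in fit, 401 with 75th percentile scaling, 459 with quantile normalization, 52 with no detection filter, 7 in the unmoderated test, 67 and 80 within slide rows 1 and 2, and 58 (without MI replicate 2) to 249 (without MI replicate 4) when 1 mouse was left out. The share of called probes that were higher was 88.3%, 72.2% with 75th percentile scaling and 67.5% with quantile normalization. Probes with adjusted p under 0.05 at any fold numbered 2590, and 1271 with the own spike-in fit, 5973 with 75th percentile scaling, 6142 with quantile normalization, 7035 with normexp, 990 with no detection filter, 747 in the unmoderated test, 523 and 1380 within slide rows 1 and 2, and 1883 to 3213 without 1 mouse. Apart from the values that the construction of an alternative explains (fewer arrays or more probes tested), the cause was not tested. The groups share replicate numbers, but mice with the same number deviated together only weakly (correlations 0.238, 0.292, 0.143 and 0.0114), so the numbers were not taken as pairs; with the replicate block 4895 probes had an adjusted p under 0.05, 1155 were called, and the calls of the members were the same 5. Signals that were dim or close to background limit the folds of Tlr1, Tlr3, Tlr6 (in sham-operated mice), Ikbke, Rel, Il1rn and Ngp.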
